A study of Mus musculus with 4 samples.

Results

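The genes described here belong to the epidermal growth factor (EGF) family and were measured in muscle stem cells (MuSCs) of adult mice, grown in culture and exposed to bone morphogenetic protein 6 (BMP6) or to vehicle. They are 6 ligands (Hbegf, Areg, Ereg, Btc, Tgfa and Nrg1), 3 ErbB receptors (Egfr, Erbb2 and Erbb3) and Errfi1, which encodes an inhibitor of active ErbB receptors. The 10 genes were chosen by name, with their control levels and their BMP6 values already known, and each named 1 of the 55267 entries of the expression table. Their levels and their differences between the groups are therefore given as a description, without a test. Of the 10, 6 reached a mean level of at least 1 transcript per 1000000 transcripts (TPM) over all libraries, and 4 ligands (Ereg, Btc, Tgfa and Nrg1) did not.

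MuSCs came from 9-week-old female mice of the genotype C57BL/6N(Tg(Pax7-EGFP)Tajb), in which a transgene under Pax7 control makes a green fluorescent protein, and were enriched by sorting for that protein after a first day in culture. All cells grew with serum, basic FGF and leukemia inhibitory factor and were then kept for 6 h without serum in 200 ng/mL of a soluble BMP receptor (BMPR-1A-Fc). The BMP6 group then received 100 ng/mL BMP6 for 1 h, and the control group received the vehicle, 4 mM HCl with 0.1% BSA. Each group held 2 biological replicates, and the labels give replicates 1 and 2 as batches that both groups share. These were cells grown outside the animal, on a coated dish and without their muscle fibre, and selected through 1 reporter.

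EGF family ligands are made as membrane-anchored precursors and are released by proteases of the ADAM family. Hbegf, Areg, Ereg, Btc and Tgfa encode ligands that bind EGFR, and Nrg1 encodes a neuregulin that binds ERBB3. ERBB2 binds no known ligand and acts as a partner of the other receptors, ERBB3 has little kinase activity of its own and signals through such a partner, and ERRFI1 (also called MIG6) is made in response to receptor signalling and blocks the EGFR kinase. In muscle, EGFR and its ligands have been studied in the activation, division and survival of MuSCs.

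The 4 libraries held 108 to 112 reads in units of 1000000, rebuilt from the deposited coverage, and 13002 to 13203 entries at a TPM of at least 1. Markers of MuSCs and myoblasts were high in all of them, with all 7 markers detected and summed levels of 1977 to 2301 TPM in BMP6 and 2190 to 2435 TPM in control libraries. Summed levels of Schwann cell (0.709 to 1.35 TPM), endothelial (0.00878 to 0.298 TPM) and epithelial markers (0.131 to 0.432 TPM) were low, and Kdr, Tie1 and Krt5 were listed at 0 in every library. Immune markers summed to 1.11 to 2.42 TPM, with Cd68 as the highest. Fibroblast markers summed to 240 to 322 TPM in BMP6 and 274 to 318 TPM in control libraries, with Col1a2 as the highest. Pericyte and smooth muscle markers summed to 2916 to 2955 TPM in BMP6 and 3107 to 3259 TPM in control libraries, nearly all of it Acta2. These sums do not show which cells carried the transcripts, and the part of any other cells in the values below was not tested.

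Hbegf, the gene of heparin-binding EGF-like growth factor, was the ligand gene with the highest level in both groups and the member with the largest difference between them. Hbegf stood at 12.8 and 15.8 TPM in control replicates 1 and 2 and at 44.5 and 49.2 TPM in BMP6 replicates 1 and 2. Both BMP6 libraries lay far above both controls, and the gap between the groups was several times the gap within either of them. The mean was 14.3 ± 2.13 TPM (SD, n = 2) in control and 46.8 ± 3.27 TPM (SD, n = 2) in BMP6, a ratio of 3.28. On the log2(TPM + 1) scale used for all differences here, BMP6 minus control was 1.65 for Hbegf, with 1.72 within replicate 1 and 1.58 within replicate 2. Among all entries, ordered from the highest TPM down, Hbegf moved from places 6532 and 6068 in the controls to places 3391 and 3208 in the BMP6 libraries. In bulk RNA such as this, fewer cells of a type and less RNA per cell cannot be told apart.

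**Figure D1:**
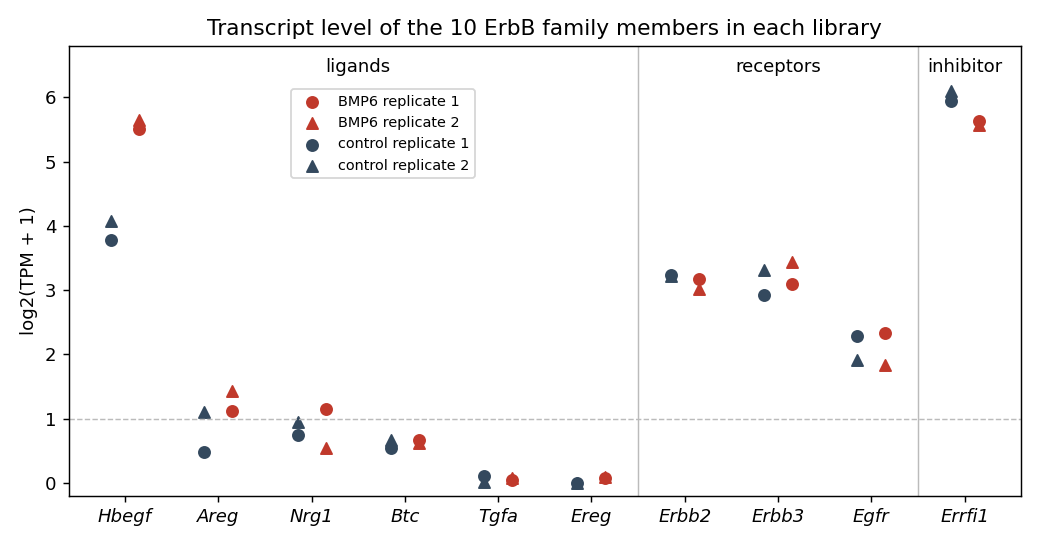
Level of each of the 10 genes in each of the 4 libraries, as log2(TPM + 1), with BMP6 in red, control in dark blue, circles for replicate 1 and triangles for replicate 2. The dashed line marks a TPM of 1, and Hbegf is the gene whose red and blue points lie farthest apart.

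Across the 13128 entries tested with limma, 24 were called higher in BMP6, which is 0.183% of them, and none was called lower. A call required a fold change of at least 2 and an adjusted p under 0.1. Hbegf was among the 24 and no other member was, a count that the choice of the genes had already fixed and from which nothing is read. The groups' libraries did not overlap, with BMP6 above, for 16.6% of tested entries and, with BMP6 below, for 11.6%. Of the 6 tested members, Hbegf and Areg lay above without overlap, Erbb2 and Errfi1 lay below, and Egfr and Erbb3 overlapped. Areg reached the filter's mean of 1 TPM only through its BMP6 libraries, with a mean of 0.773 TPM in control and 1.44 TPM in BMP6. Nothing is therefore read from its place above.

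The Hbegf entry covers chr18:36637980-36648858 on the minus strand of GRCm39 and holds 1 transcript of 6 exons that encodes 208 amino acids. The higher BMP6 level was seen along the whole transcript. Scaled depth, the mean depth per 100000000 rebuilt reads, was followed exon by exon. In exon 1 it was 46.9 and 48.8 in the controls and 141 and 154 in BMP6. In exon 5, the exon with the highest depth in BMP6, it was 177 and 195 in the controls and 620 and 633 in BMP6. Over the 6 exons the ratio of BMP6 to control depth ran from 3.01 to 3.70 within replicate 1 and from 2.66 to 3.29 within replicate 2. In GENCODE M39 a long non-coding gene on the opposite strand, Gm41698, overlaps 283 of the 2375 exonic bases of Hbegf. The libraries carried no strand information, so reads there could belong to either gene. The exons that hold these bases were not set apart in the ratios above. Hbegf had 1939 and 2312 rebuilt reads in the controls and 6627 and 7011 in BMP6.

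**Figure D2:**
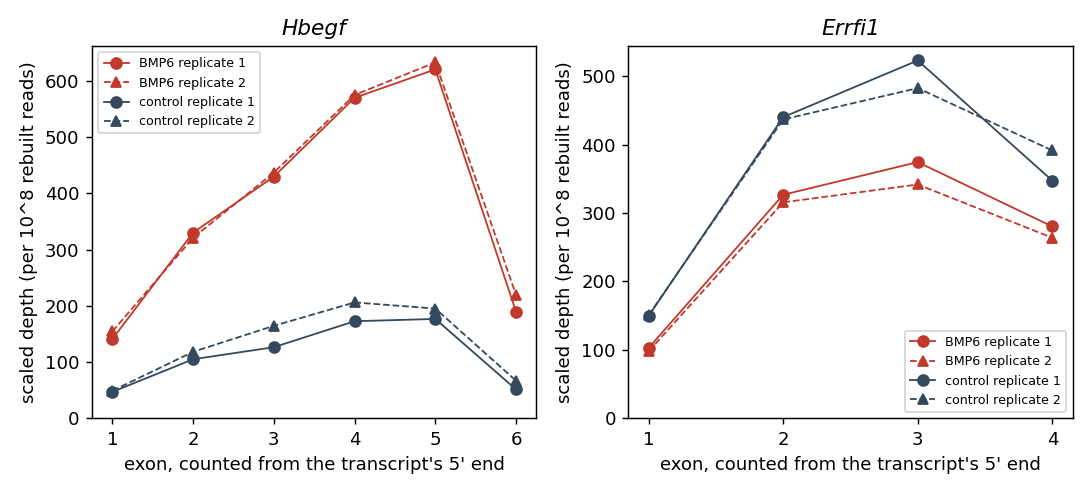
Scaled depth (per 100000000 rebuilt reads) in each exon of Hbegf (left) and of the Errfi1 transcript that carried its reads (right), with exons numbered from the 5′ end. In all 6 Hbegf exons both BMP6 lines (red) lie above both control lines (dark blue), and in all 4 Errfi1 exons they lie below.

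The other ligands added little transcript beside Hbegf. Their 5 levels summed to 1.61 and 2.67 TPM in the controls and 3.07 and 2.81 TPM in BMP6. Hbegf therefore made up 88.8% and 85.5% of the summed TPM of the 6 ligands in the controls and 93.5% and 94.6% in BMP6. Both BMP6 libraries had a higher share than both controls, and no library had the other 5 ligands together above the level of Hbegf.

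Areg, the gene of amphiregulin, had the next highest mean of the ligands in BMP6, though its range overlapped that of Nrg1, which was the higher of the pair in BMP6 replicate 1. It stood at 0.395 and 1.15 TPM in the controls and at 1.18 and 1.70 TPM in BMP6, with means of 0.773 ± 0.536 TPM and 1.44 ± 0.368 TPM (SD, n = 2). The lower BMP6 library lay only just above the higher control, and the low value of control replicate 1 set much of the difference. Within replicate 1 BMP6 minus control was 0.64 and within replicate 2 it was 0.33, with 0.48 over both. These values rest on 31 and 87 rebuilt reads in the controls and 90 and 124 in BMP6. With such low levels the size depended on the scale, and it ran from 0.16 with a pseudocount of 5 to 1.03 on rebuilt reads, with 0.17 without control replicate 1, and was higher in BMP6 in all 10 alternatives run.

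Nrg1, the neuregulin gene, showed no common direction. It stood at 0.679 and 0.921 TPM in the controls and at 1.23 and 0.460 TPM in BMP6, so the BMP6 libraries enclosed the control values. Within replicate 1 the difference was 0.41 and within replicate 2 it was -0.40. Nrg1 has several start sites, which give neuregulin types with different first exons. Transcripts from the start at 32499569 on chromosome 8 of GRCm39 carried 84.5% and 98.4% of Nrg1 TPM in the controls and 97.5% and 100% in BMP6. The 2 far upstream starts, at 33374485 and 33374825, were listed at 0 in all libraries. Nrg1 had 75 to 175 rebuilt reads in a library, spread over many transcripts, which limits what can be read from these shares.

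Btc, the gene of betacellulin, was level between the groups, with 0.461 and 0.588 TPM in the controls and 0.589 and 0.530 TPM in BMP6. Tgfa, the gene of transforming growth factor alpha, was near 0, with 0.0731 and 0.0117 TPM in the controls and 0.0334 and 0.0554 TPM in BMP6, on 4 to 22 rebuilt reads. Ereg, the gene of epiregulin, was listed at 0 in both controls and at 0.0485 and 0.0662 TPM in BMP6. The Ereg signal rested on 13 and 17 rebuilt reads in the first and last exons, while exons 2 to 4 were at 0 in every library, and a gene on the opposite strand, Gm19610, overlaps 173 exonic bases of Ereg. No Ereg transcript was therefore covered from end to end in any library, and no fold is given for it.

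The other ligands and receptors of the family, taken as a list around the 10 genes, were also low or listed at 0. Egf stood at 0.297 to 0.585 TPM, Epgn (epigen) at 0.299 to 0.697 TPM and Nrg4 at 0.0716 to 0.225 TPM over the 4 libraries. Nrg2, Nrg3 and the receptor gene Erbb4 were listed at 0 in all of them. None of these 6 reached the level needed for the test.

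The 3 receptor genes were transcribed at lower levels than Hbegf and differed little between the groups. Erbb2 stood at 8.45 and 8.36 TPM in the controls and at 8.04 and 7.12 TPM in BMP6. Erbb3 stood at 6.59 and 8.93 TPM in the controls and at 7.55 and 9.88 TPM in BMP6. Egfr stood at 3.89 and 2.76 TPM in the controls and at 4.06 and 2.57 TPM in BMP6. For Erbb3 and Egfr the 2 replicates of a group lay farther apart than the group means did, and the libraries of the groups overlapped. For Erbb2 both BMP6 libraries lay below both controls, by a small step.

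As differences of BMP6 minus control on the log2 scale, Erbb2 was at -0.13, with -0.07 and -0.20 within replicates 1 and 2. Erbb3 was at 0.15, with 0.17 and 0.13. Egfr was at -0.01, with 0.05 and -0.07. Within each replicate number Erbb3 was a little higher in BMP6 and Erbb2 a little lower, and Egfr went either way. Erbb3 was higher than Erbb2 in replicate 2 of both groups and lower in replicate 1 of both, with ratios of 0.780 and 1.07 in the controls and 0.940 and 1.39 in BMP6. Egfr likewise had its higher level in replicate 1 of both groups. The summed level of the 3 receptors was nearly flat, at 18.9 and 20.0 TPM in the controls and 19.7 and 19.6 TPM in BMP6, and Egfr made up 20.6% and 13.8% of it in the controls and 20.7% and 13.2% in BMP6. Set against Egfr, Hbegf was at 3.29 and 5.73 times its TPM in the controls and at 10.96 and 19.1 times in BMP6.

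**Figure D3:**
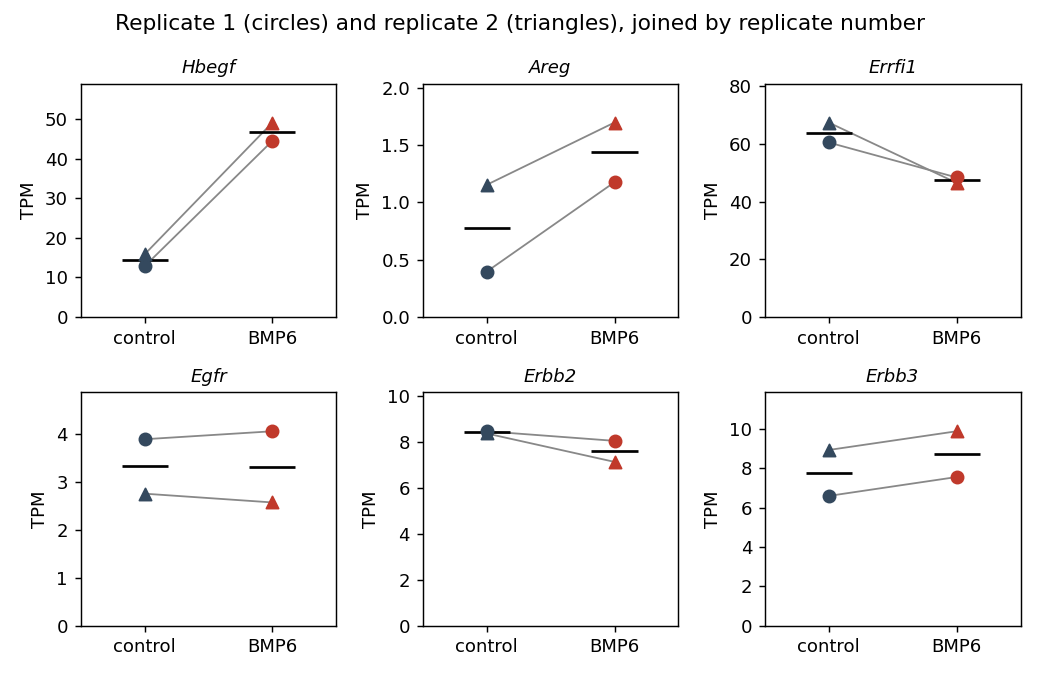
TPM of the 6 members that passed the filter on low values, with each control library joined to the BMP6 library of the same replicate number and black bars for the group means (n = 2). The axes start at 0 and differ between panels; the 2 lines climb steeply for Hbegf and run downward for Errfi1.

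In order of mean TPM, the controls ran Errfi1, Hbegf, Erbb2, Erbb3, Egfr, Nrg1, Areg, Btc, Tgfa and Ereg. Erbb2 and Erbb3 overlapped in that order, as did Nrg1 with Areg and Areg with Btc, so these neighbours did not differ beyond their spread. In BMP6 libraries the order was Errfi1, Hbegf, Erbb3, Erbb2, Egfr, Areg, Nrg1, Btc, Ereg and Tgfa. There Erbb3 with Erbb2, Areg with Nrg1, Nrg1 with Btc and Ereg with Tgfa overlapped, and so did Hbegf and Errfi1, whereas in the controls Hbegf stood at only 0.211 and 0.234 of the Errfi1 level.

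Egfr was read in part as a shortened transcript, which by TPM carried over 50% in 3 of the 4 libraries and less in BMP6 replicate 2. The entry at chr11:16702203-16868158 on the plus strand of GRCm39 holds a full-length transcript of 28 exons that encodes 1210 amino acids, and a short one of 16 exons that encodes 655. The short form ends in the intron after exon 16, before the part that encodes the membrane span and the kinase, and so leaves only the extracellular, ligand-binding part of the receptor. The 50 bases around the point where the transcripts part are shown because they hold this end. The capitals mark the GT of the splice donor, which the full-length transcript splices and the short one reads through. Before it lie the last 25 bases of exon 16, and after it the short form continues for 738 bases, the first 40 of them coding.
Egfr, chr11:16837161-16837210, plus strand: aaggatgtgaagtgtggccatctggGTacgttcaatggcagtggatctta

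The short Egfr transcript carried 57.6% and 54.2% of Egfr TPM in the controls and 59.8% and 42.0% in BMP6. The shares overlapped between the groups. The depth along the exons showed a step as well, without relying on how reads were divided between the 2 transcripts. Scaled depth over exons 2 to 15, summed over both forms, was 42.5 and 28.3 in the controls and 40.6 and 26.3 in BMP6. Over exons 17 to 27 it was 9.30 and 8.80 in the controls and 12.3 and 10.7 in BMP6. Later exons thus held 21.9% and 31.1% of the depth of earlier exons in the controls and 30.3% and 40.8% in BMP6. This was a little more within each replicate number in BMP6, although the ranges of the groups overlapped. The full-length transcript's share of Egfr TPM was higher, at 42.4% and 45.8% in the controls and 40.2% and 58.0% in BMP6. Full-length TPM also averages in exon 28, whose 6665 bases had a scaled depth of only 3.40 to 4.63 over the libraries, below that of exons 17 to 27. In the shared exons more depth was assigned to the full-length form than to the short one. In exon 2 of control replicate 1 it was 26.5 against 14.1. The size of the short form's part therefore depended on the measure.

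Such a step was not seen in the other receptors over comparable exons. For Erbb2 the depth of exons 17 to 26 was 120% to 130% of that of exons 2 to 15 in the 4 libraries. For Erbb3 the depth of exons 17 to 27 was 110% to 170% of that of exons 2 to 15. In both genes depth went up toward the 3′ end, the reverse of Egfr. A full-length Egfr TPM of 1.65 and 1.26 in the controls and 1.63 and 1.49 in BMP6 remained, lower than the Egfr level given above. These are RNA levels, and no receptor protein was measured in these libraries.

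**Figure D4:**
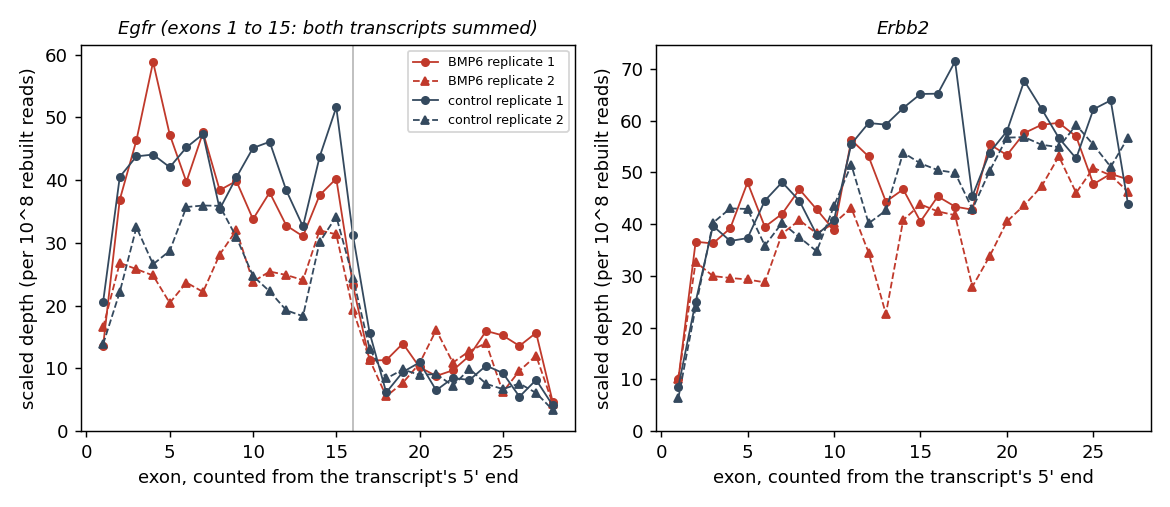
Scaled depth (per 100000000 rebuilt reads) along the exons of Egfr (left, exons 1 to 15 summed over both transcripts, exon 16 and later from the full-length one alone) and Erbb2 (right), numbered from the 5′ end, for the 4 libraries. The grey line marks Egfr exon 16, and depth in all 4 libraries is lower over exons 17 to 27 than over exons 2 to 15, while Erbb2 shows no such drop.

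Errfi1, the gene of the feedback inhibitor, was the most abundant of the 10 genes in the controls and the member with the largest difference downward. It stood at 60.5 and 67.5 TPM in the controls and at 48.4 and 46.5 TPM in BMP6. Both BMP6 libraries lay below both controls, and the gap between the groups exceeded the gap within each. Means were 64.0 ± 4.90 TPM in control and 47.5 ± 1.32 TPM in BMP6 (SD, n = 2), a ratio of 0.742. BMP6 minus control was -0.42 on the log2 scale, with -0.32 and -0.53 within replicates 1 and 2. The lower level was again seen in all 4 exons, where the ratio of BMP6 to control depth ran from 0.650 to 0.807. Errfi1 had 9242 and 8517 rebuilt reads in BMP6 and 11772 and 12659 in the controls. A stretch of 487 bases of Errfi1 has a near copy in Gm69161, a neighbouring non-coding gene of GENCODE M39, so some reads could come from either.

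Errfi1 has a pair of annotated starts, and the reads came from one of them. All of its TPM was assigned in every library to the transcript that starts at 150939530 on chromosome 4, and the transcript that starts upstream, at 150938376, was listed at 0 in all libraries. The 120 bases before each start, as RefSeq places it, and before the start of Areg are shown, because they compare a start that was used with one that was not and the 2 members with the same short motifs. The sequences are from the RefSeq promoter table, which is of GRCm38.p6; each was found exactly once in GRCm39, whose coordinates are given. Capitals mark the cyclic AMP response element TGACGTCA (CRE) and the TATA box TATAAA.
Errfi1, used start, chr4:150939407-150939526, plus strand: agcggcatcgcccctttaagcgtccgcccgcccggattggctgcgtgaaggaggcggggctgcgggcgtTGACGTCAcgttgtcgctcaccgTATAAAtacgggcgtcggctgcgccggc
Errfi1, upstream start, chr4:150938133-150938252, plus strand: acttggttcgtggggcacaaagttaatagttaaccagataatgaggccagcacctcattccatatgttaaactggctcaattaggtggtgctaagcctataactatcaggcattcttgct
Areg, chr5:91287338-91287457, plus strand: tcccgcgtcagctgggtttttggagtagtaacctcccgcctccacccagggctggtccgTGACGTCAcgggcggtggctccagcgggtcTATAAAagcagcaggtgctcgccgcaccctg

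At the used Errfi1 start the CRE began 51 bases and the TATA box 28 bases before the start, and at Areg they began 61 and 31 bases before it. The letters searched on both strands were the CRE, TGACTCA (AP-1), GGCGCC and GTCTAGAC (which SMAD proteins can bind) and TATAAA, in windows of 300 bases. Of all 32851 promoters in the table, 1.79% held the CRE, 5.2% the AP-1 motif, 11.9% GGCGCC, 0.213% GTCTAGAC and 13.6% the TATA box. The promoter of Tgfa held GGCGCC, 24 bases after the start, and those of Btc, Egfr and Erbb2 and the upstream one of Errfi1 held none of the 5. Promoters of 6 of the 10 genes were searched, and those of Hbegf, Ereg, Nrg1 and Erbb3 were not. A match is a description of the letters. Areg and Errfi1 shared both motifs. Any part of the motifs in the differences between the groups was not tested.

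The 5 genes whose pattern over the 4 libraries was most like that of Hbegf were Pwwp2b, Skil, Cldn9, Klf10 and Id4. Likeness was the root mean square difference, over the 4 libraries, of log2(TPM + 1) centred on each gene's own mean, and it was 0.07 for Pwwp2b and Skil, 0.08 for Cldn9 and Klf10 and 0.09 for Id4. Skil, which encodes a co-repressor that binds SMAD proteins, stood at 10.0 and 12.7 TPM in the controls and 36.2 and 44.5 TPM in BMP6. Klf10, which encodes a zinc-finger transcription factor, stood at 46.4 and 54.9 TPM in the controls and 165 and 193 TPM in BMP6. Replicate 2 was the higher library of each group for both genes, as in Hbegf. The choice by likeness over these same libraries favours such a shared order, so nothing is read from it. Id4, of the inhibitor of DNA binding family, stood at 0.559 and 1.07 TPM in the controls and 3.79 and 5.06 TPM in BMP6. Pwwp2b (0.947 and 1.47 TPM in the controls, 5.93 and 7.03 TPM in BMP6) and Cldn9, a claudin gene (0.280 and 0.716 TPM in the controls, 3.22 and 4.28 TPM in BMP6), were also low. Cldn9 and Id4 reached the filter's mean of 1 TPM only through their BMP6 libraries. Of the 5, 2 were also among the nearest with a pseudocount of 0.1 (Klf10 and Skil) and 1 with a pseudocount of 5 (Skil).

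The genes around the receptors were taken as a list of 66, of which 55 were tested. None passed an adjusted p of 0.1 in either direction (limma, Benjamini-Hochberg), and 2 had an unadjusted p under 0.05. Over all 13128 entries tested, 31 passed the adjusted threshold with a higher level in BMP6, which is 0.236%, and 1 with a lower level, which is 0.00762%. Of the same entries, 420 had an unadjusted p under 0.05. In the list 39 were higher and 16 lower in BMP6, beside 7266 higher and 5862 lower over all entries tested. After quantile normalization the list held 34 higher and 21 lower, beside 6323 higher and 6803 lower over all entries. The median difference in the main fit was 0.06 against 0.02 over all entries tested. These are small values, and 1 low library (BMP6 replicate 1) set the largest of them.

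Among 14 genes for shedding and trafficking of the ligands, 13 were tested, and 12 were higher and 1 lower, with a median of 0.07. After quantile normalization 11 of these genes were higher and 2 lower, and with voom on rebuilt reads 10 and 3. Those with the largest differences were Tmed2, a cargo receptor of the secretory route, at 801 and 760 TPM in the controls and 871 and 947 TPM in BMP6, and Adam10, a membrane protease, at 21.9 and 20.5 TPM in the controls and 21.8 and 27.5 TPM in BMP6. The difference was 0.22 for Tmed2 (SE 0.08, limma adjusted p = 1.00) and 0.20 for Adam10 (SE 0.14, adjusted p = 1.00). Adam17, the protease best known for release of HB-EGF and named here for that role, stood at 26.2 and 28.7 TPM in the controls and 28.8 and 29.6 TPM in BMP6. Transcripts of these 3 genes stood above Hbegf in both controls.

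Among 17 adaptors, 15 were tested, and 10 were higher and 5 lower, with a median of 0.02. After quantile normalization this split turned to 6 higher and 9 lower. Sos2, an exchange factor for RAS, stood at 0.739 and 1.56 TPM in the controls and 1.21 and 2.42 TPM in BMP6, with a difference of 0.38 (SE 0.28, limma adjusted p = 1.00). Grb2, the adaptor that links ErbB receptors to RAS, stood at 73.5 and 94.9 TPM in the controls and 46.5 and 91.0 TPM in BMP6, with a difference of -0.35 (SE 0.31, adjusted p = 1.00). Only BMP6 replicate 1 was low for Grb2, and the other BMP6 library lay among the controls.

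Of 22 genes of the RAS-ERK and PI3K-AKT cascades, 20 were tested, and 12 were higher and 8 lower, with a median of 0.04. Akt1, a kinase of the PI3K branch, stood at 212 and 254 TPM in the controls and 84.8 and 238 TPM in BMP6, with a difference of -0.70 (SE 0.44, limma adjusted p = 1.00). As for Grb2, the difference lay in BMP6 replicate 1 alone. Braf, a kinase of the ERK branch, stood at 1.35 and 1.60 TPM in the controls and 1.73 and 2.57 TPM in BMP6, with a difference of 0.34 (SE 0.18, adjusted p = 1.00). Among 7 further inhibitors of the receptors, all tested, 5 were higher and 2 lower, with a median of 0.10. Socs4, which encodes an adaptor for receptor degradation, differed by 0.26 (SE 0.16, adjusted p = 1.00) and Lrig3, of a family of transmembrane regulators, by 0.26 (SE 0.14, adjusted p = 1.00).

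The output of the ERK cascade was read from 10 genes, of which 7 were tested. None of the 7 passed the adjusted threshold, and 3 had an unadjusted p under 0.05, beside 420 of all 13128 entries tested. Of the 7, 3 were higher and 4 lower, with a median of -0.04. Spry2, a feedback inhibitor of RAS-ERK signalling, stood at 30.7 and 25.8 TPM in the controls and at 53.1 and 52.6 TPM in BMP6. Its libraries did not overlap, and the difference was 0.88 (SE 0.12, limma adjusted p = 0.107). Phlda1 stood at 6.87 and 9.29 TPM in the controls and 12.0 and 13.4 TPM in BMP6, a difference of 0.60 (SE 0.17, adjusted p = 1.00). Dusp6, a phosphatase of ERK and the other gene with an unadjusted p under 0.05, was named after its values were seen. It stood at 4.11 and 4.23 TPM in the controls and 2.60 and 2.76 TPM in BMP6, without overlap and in the opposite direction, a difference of -0.49 (SE 0.14, adjusted p = 1.00). With the replicate number as a block, Spry2 and Phlda1 passed, at an adjusted p of 0.00101 and 0.0308, and Dusp6 did not, at 0.12. In that fit 1.23% of all entries passed with a higher and 0.404% with a lower level.

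**Figure D5:**
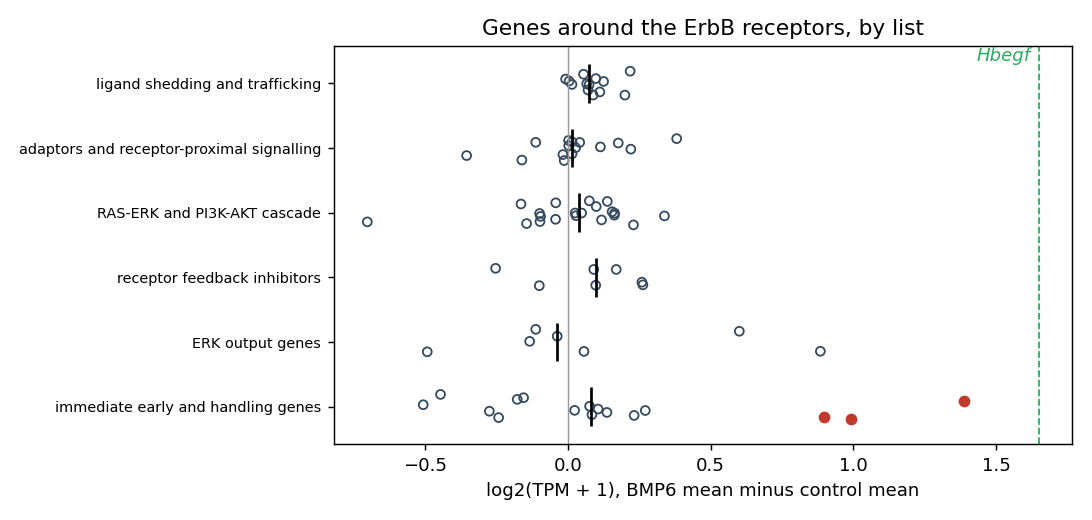
Difference between the group means of log2(TPM + 1), BMP6 minus control, for each tested gene (1 circle each) of the lists around the ErbB receptors, with black bars at the list medians. Filled red circles are the 3 genes past an adjusted p of 0.1 (Junb, Ier3 and Dusp1), and the green dashed line is Hbegf at 1.65, to the right of all of them.

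Hbegf also responds to handling and serum in many cells, so 18 immediate early genes were set beside it. Of these 16 were tested, and 3 rose in BMP6 and none fell by the adjusted p, beside 31 and 1 of all 13128 entries tested. In direction, 10 were higher and 6 lower, with a median of 0.08. Junb, a subunit of the AP-1 transcription factor, rose from 108 and 120 TPM in the controls to 301 and 297 TPM in BMP6, a difference of 1.39 (SE 0.09, limma adjusted p = 0.0132). Ier3 rose from 10.5 and 11.4 TPM to 23.1 and 22.4 TPM, a difference of 0.99 (SE 0.12, adjusted p = 0.0721). Dusp1, a phosphatase of MAP kinases, rose from 90.6 and 104 TPM to 182 and 180 TPM, a difference of 0.90 (SE 0.10, adjusted p = 0.059). The other 13 tested genes of the list did not pass. Ier3 did not pass when any 1 of the 4 libraries was left out, nor with voom on rebuilt reads. Without control replicate 1, Junb alone passed, and with the replicate block Myc also passed, with a lower level in BMP6.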

How the data were processed

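PolyA RNA from 2 BMP6-treated and 2 control cultures was made into unstranded Smart-seq2 libraries. The authors aligned reads with STAR 2.7.11a to GRCm39 (GENCODE M32), sorted them with SAMtools 1.17 and quantified a merged StringTie 2.2.1 assembly. The authors deposited TPM per gene, which are scaled to library total and transcript length, and, per the file headers, coverage as a signal of mean depth over transcripts and exons, which is not scaled to library size. FPKM were not used. Reads were rebuilt here as coverage times length over a read length of 100 bases. These include both ends of a pair and amplified copies, so they are not independent molecules.

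limma 3.58.1 (R 4.3.3, lmFit, eBayes with trend, two-sided) was run on log2(TPM + 1), with no block and with Benjamini-Hochberg adjustment. It covered the 13128 entries whose mean TPM reached 1. The study reports no pairing term for its differential expression test, and a paired design for its heatmaps. The study tested counts, and the values used here are TPM. Fold changes of low genes are understated on this scale. Calls needed a 2-fold difference either way (0.5 for lower) at an adjusted p below 0.1, and names that the study leaves out (Gm, Mir, Rik, os, -ps or no name) were not called. The procedure was tested on simulated data whose libraries were drawn independently, without an effect of replicate number, so the test does not cover such an effect. The p-values rest on the spread of 2 biological replicates in each group, which eBayes moderates with the spread of other entries of similar level. The labels give replicate numbers as shared batches, and deviations of same-numbered libraries correlated at 0.563 over 13128 entries, so the numbers pair the libraries. The main fit does not use this pairing.

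The 10 members, all lists and the tests were chosen with earlier results of these data known. Besides the members, the text names list genes past the adjusted p, the 2 with the largest difference in each list, and the 5 genes most like Hbegf. Of 142 list and marker genes, 141 matched by symbol, and Nrdc matched the entry Nrd1. Pseudocounts, filters, quantile normalization, voom on rebuilt reads, a replicate block and leaving out each library were the alternatives. Exons and overlaps were read from the authors' transcripts and from GENCODE M39.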

Additional observations from a re-analysis of the deposited data

How the results depend on the processing

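Over the alternatives run, Hbegf was higher in BMP6 in 11 of 11, with a log2 difference of 1.43 to 1.79, Errfi1 lower in 11 of 11 (-0.50 to -0.34), Erbb2 lower in 11 of 11 (-0.21 to -0.06) and Areg higher in 10 of 10 (0.16 to 1.03). Erbb3 was higher in 9 of 11 and Egfr in 3 of 10. Members below the filter had no value in 4 of the alternatives. The 24 entries called became 15 when 5 was the pseudocount and 15 when the filter was a mean TPM of 5. They became 1 without any filter, where many low entries enter both the fit and the adjustment. With the replicate block that uses the pairing, 37 were called. Without 1 library, 18 to 34 were called. The ErbB signalling list had no gene past the adjusted p, except 1 (Akt1) without BMP6 replicate 2, a range of 0 to 1 over the libraries left out. The ERK output list went from 0 to 2 genes with the replicate block and stayed at 0 to 0 with a library left out. The immediate early list went from 3 genes to 0 without a filter, and to 1 to 2 with a library left out, the lowest without control replicate 1. When a library is left out, the lone library of its group is assumed to vary like the other group. The causes of these changes were not tested. At this depth, Tgfa and Ereg were too low for any difference to be read.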
